A study of Mus musculus with 4 samples.

Results

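The DEAD and DEAH box RNA helicases are a family of motor proteins measured here at the RNA level in LL2, a line of mouse tumour cells derived from the Lewis lung carcinoma. The members are the protein-coding genes of the count table whose symbol is Ddx or Dhx followed by a number, leaving out 2 genes of RNA sensing in innate immunity. This gave 51 of 54532 genes, 36 named Ddx and 15 named Dhx. One group of cells received 20 mM lactic acid in the medium for 24 h, and the control group received an equal volume of the salt buffer PBS over the same 24 h. Each group holds 2 libraries, named biological replicates in the labels. No label says whether they came from separate cultures, so p-values measure the spread between these libraries, which may be technical. The labels give no genetic change for either group, and all 4 libraries come from this single line.

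RNA helicases of these families bind ATP and use it to open short RNA duplexes or to strip proteins from RNA. Ddx proteins, named for the residues Asp-Glu-Ala-Asp of their ATPase motif, mostly pry apart short duplexes locally, whereas Dhx proteins, with Asp-Glu-Ala-His, mostly pull on a single strand from its end. In the nucleus they drive the steps of splicing, in the nucleolus they remodel ribosomal RNA precursors, and in the cytoplasm they act in translation and decay of messenger RNA. Not every symbol follows the biochemistry, since Ddx11 encodes a DNA helicase of another type that acts in sister chromatid cohesion.

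Libraries held 15501006 to 17409990 counts, and tested members 141 to 16613 counts each. Abundances are given in CPM, counts relative to the scaled size of the library, where genes are compared between groups, and in FPKM, the authors' values per length, where levels of different genes are compared. Keratin genes Krt8 (mean 118 CPM with PBS and 53.3 with lactic acid) and Krt18 (99.3 and 99.1 CPM) were present, while Epcam and Cdh1, which define most epithelia, were at 0.063 CPM or below in each group mean. Krt19 (0.762 and 0.334 CPM) and Cldn7 (0.301 and 0.121 CPM) were low as well. The 5 alveolar markers summed to 0 to 0.445 CPM, 2 of them with no count in any library. The 4 mesenchymal markers summed to 5362 to 5464 CPM in the 4 libraries, but moved apart, with S100a4 (mean 67.1 CPM with PBS and 24.4 with lactic acid) and Vim (4053 and 3345 CPM) lower, Fn1 higher (1319 and 1999 CPM) and Cdh2 not called. The 5 fibroblast markers summed to 34.2 to 38.1 CPM, with Pdgfrb lower (14.2 and 7.06 CPM), Pdgfra higher (18.8 and 29.2 CPM), Col1a1 and Dcn not called and Lum at no count. The part of these shifts in the helicase results was not tested. The 6 immune markers summed to 0 to 0.350 CPM, 4 of them with no count in any library, and the 4 endothelial markers to 0.408 to 0.846 CPM, 1 of them with no count. In bulk RNA, fewer cells with a transcript and less of it per cell cannot be told apart.

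Most helicase genes were lower with lactic acid. Of the 46 members abundant enough to test, 30 fell, 3 rose and 13 did not pass (edgeR quasi-likelihood test, Benjamini-Hochberg adjusted p under 0.05 over all genes). Over all 13922 genes tested, 49.0% were called, 24.3% as lower and 24.7% as higher. Among the 7660 of them with a mean of at least 20 CPM, which includes 45 of the tested members, 63.5% were called, 36.5% as lower and 27.1% as higher. The median log2 fold change was -0.23 over the tested members, against 0.0073 over all genes tested and -0.040 over those with at least 20 CPM. The family was chosen by its fold changes and calls in this same contrast, although the rule for its members reads only gene names, so these numbers describe it and do not test it. Higher and lower are relative to the other genes.

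**Figure D1:**
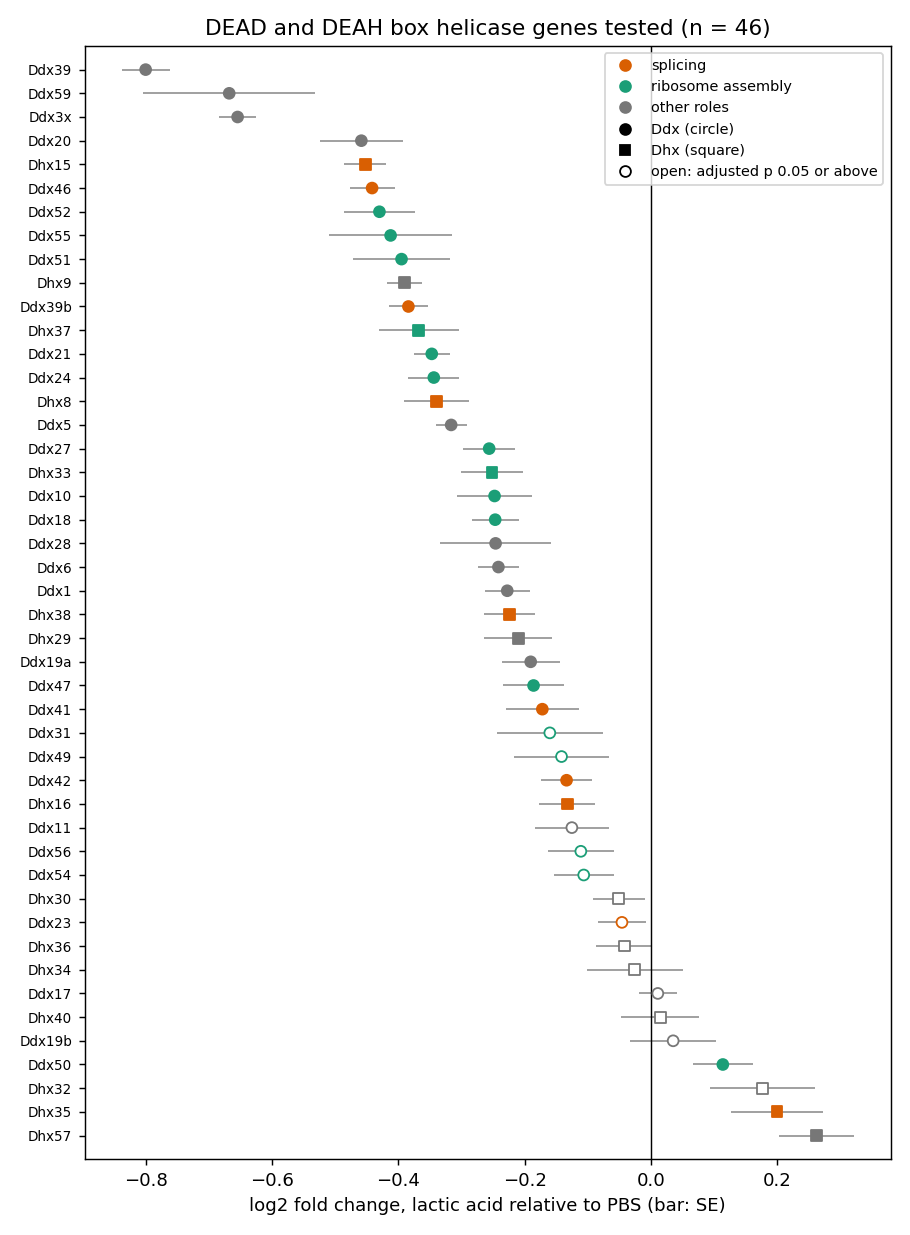
Log2 fold change of each tested member, lactic acid relative to PBS, from the edgeR fit to 2 libraries per group. Points are estimates and bars standard errors, circles are Ddx and squares Dhx genes, filled points have an adjusted p below 0.05, and colour marks splicing and ribosome assembly. The members run from Ddx39 at -0.80 to Dhx57 at 0.26, with 39 of 46 estimates below 0.

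The falls were modest and repeated in both libraries of a group. A fall of at least 0.3 on the log2 scale was reached by 16 members. Both lactic acid libraries lay below both PBS libraries for 35 tested members and above them for 4, while the groups overlapped for 7. Over all genes tested the groups were separate in 72.3%, with 35.5% below and 36.9% above, and over those with at least 20 CPM in 81.4%, with 45.7% below and 35.7% above. Taken as one pool, the family made up 0.796% and 0.785% of all counts with PBS and 0.671% and 0.669% with lactic acid. On the per-length scale its summed level fell from 1502 and 1479 FPKM with PBS to 1215 and 1211 FPKM with lactic acid. Neither pair of library sums overlapped with the other.

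Levels within the family spanned 33.8-fold among tested members in the PBS libraries. Ddx5, a coactivator of transcription that also acts in splicing and microRNA processing, was the most abundant at 175 and 168 FPKM with PBS and 136 and 137 FPKM with lactic acid. Ddx39b and Ddx21 followed at means of 121 and 110 FPKM with PBS, and this order was the same in both groups. The 10 most abundant members carried 57.3% and 56.7% of the family's FPKM with PBS and 53.9% and 54.1% with lactic acid. Of these 10, 9 fell and Ddx17 did not pass, and their median log2 fold change was -0.37. Of the other 36 tested members, 21 fell and 3 rose, with a median of -0.18. Lower calls were also more frequent among abundant genes in general, at 24.3% of all genes tested and 36.5% of those with at least 20 CPM. The part of abundance in this split was not tested.

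Of the 10 splicing helicases 8 fell, 1 rose and 1 did not pass (median log2 fold change -0.20). Among genes with at least 20 CPM, 36.5% were lower and 27.1% higher. The splicing helicases act in sequence on the spliceosome, the particle that removes introns. At the assembly steps, Ddx46, the counterpart of yeast Prp5 that helps the U2 particle reach the branch site, measured 267 and 263 CPM with PBS and 193 and 197 CPM with lactic acid (log2 fold change -0.44, SE 0.04). The libraries of each group lay close together and the groups were well apart. Ddx39b, the counterpart of yeast Sub2 that acts in early assembly and in export of messenger RNA, measured 455 and 464 CPM with PBS and 355 and 349 CPM with lactic acid (-0.38, SE 0.03), again with separate groups. Ddx42, which associates with the U2 particle, was lower by a smaller amount (-0.13, SE 0.04), a call that was lost with total counts only (edgeR adjusted p = 0.0667), in the DESeq2 Wald test (0.0636) and without lactic acid replicate 2 (0.159). Ddx23, the counterpart of yeast Prp28 that displaces the U1 particle from the 5′ splice site, was at 179 and 185 CPM with PBS and 182 and 171 CPM with lactic acid, and its groups overlapped (-0.046, SE 0.04).

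The DEAH helicases of the later steps also fell, except Dhx35. Dhx15, the counterpart of yeast Prp43 that takes spliceosomes apart and also acts on ribosome precursors, fell about as much as Ddx46. It measured 378 and 354 CPM with PBS and 264 and 271 CPM with lactic acid (log2 fold change -0.45, SE 0.03). Dhx8, the counterpart of yeast Prp22 that releases the spliced message, fell by 0.34 on the log2 scale, and Dhx38, the counterpart of yeast Prp16 at the second step, by 0.22. Dhx16, the counterpart of yeast Prp2 that activates the spliceosome (-0.13), and Ddx41, found in catalytic spliceosomes (-0.17), were lower, but neither was called with total counts only or in the DESeq2 Wald test. Without lactic acid replicate 1 or 2 Ddx41 was not called, and without PBS replicate 2 or lactic acid replicate 2 Dhx16 was not called.

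Dhx35, a component of catalytic spliceosomes whose step is not settled, was the exception of the splicing group. It rose from 37.8 and 36.6 CPM with PBS to 43.0 and 42.5 CPM with lactic acid (log2 fold change 0.20, SE 0.07, edgeR adjusted p = 0.0194). Its groups were separate, but the call did not hold in the DESeq2 Wald test (adjusted p = 0.164), on the FPKM, or without PBS replicate 2, lactic acid replicate 1 or lactic acid replicate 2.

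**Figure D2:**
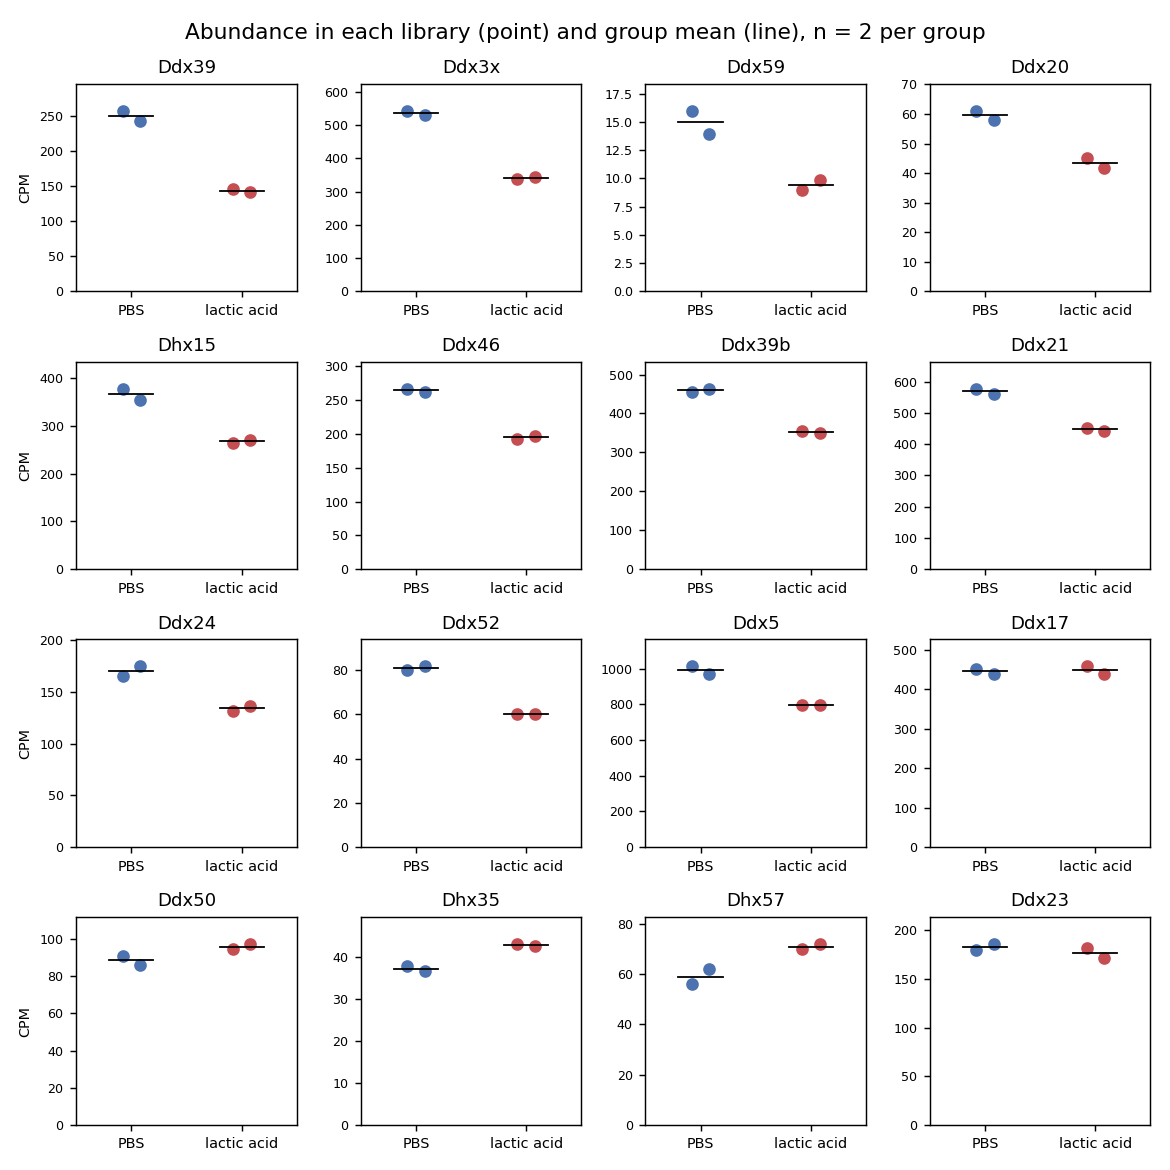
Abundance in CPM of 16 members in each of the 4 libraries. Points are libraries (blue PBS, red lactic acid), black lines are group means with n = 2, and every axis starts at 0. The groups are separate for all genes shown except Ddx17 and Ddx23, and Ddx50, Dhx35 and Dhx57 are the genes with higher red points.

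Of the 16 ribosome assembly helicases 11 fell, 1 rose and 4 did not pass (median log2 fold change -0.25). Among genes with at least 20 CPM, 36.5% were called lower. Both lactic acid libraries lay below both PBS libraries for 45.7% of those genes and for 15 of the 16 helicases. Ddx21, which links ribosomal RNA synthesis to its processing, was the most abundant at 577 and 560 CPM with PBS and 451 and 443 CPM with lactic acid (log2 fold change -0.35, SE 0.03). Ddx24, the counterpart of yeast Mak5, fell from 166 and 175 CPM to 132 and 136 CPM (-0.34, SE 0.04). Ddx52, the counterpart of yeast Rok1, fell from 80.3 and 81.7 CPM to 60.1 CPM in each lactic acid library (-0.43, SE 0.06). In all 3 genes the gap between groups was wider than the gap between libraries of a group.

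The subunit each helicase serves is best known in yeast. Of 5 members whose counterparts act on the small subunit, 4 fell (median -0.25 on the log2 scale). These were Ddx52, Dhx37 (-0.37), the counterpart of Dhr1 that frees the U3 small nucleolar RNA, Ddx10 (-0.25), the counterpart of Dbp4, and Ddx47 (-0.19), the counterpart of Rrp3. Ddx49, the counterpart of Dbp8, was at -0.14 (SE 0.08). Of 7 members whose counterparts act on the large subunit, 4 fell, with a median of -0.26. Ddx55 (-0.41), Ddx51 (-0.40), Ddx24 and Ddx27 (-0.26), the counterparts of Spb4, Dbp6, Mak5 and Drs1, were those that fell. Ddx31 (-0.16, SE 0.08), Ddx56 (-0.11, SE 0.05) and Ddx54 (-0.11, SE 0.05), the counterparts of Dbp7, Dbp9 and Dbp10, did not pass. This division by subunit was made after the values were seen, and the difference in counts was not tested. Beside these counts, 36.5% of genes with at least 20 CPM were lower. Ddx18, the counterpart of Has1 that serves both subunits, fell by 0.25 on the log2 scale, as did Dhx33, which promotes transcription by RNA polymerase I (-0.25).

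Steeper falls lay outside splicing and ribosome assembly, in Ddx39 of export, Ddx59 of less known role and Ddx3x of translation. Ddx39, now also called Ddx39a, is the close relative of Ddx39b in messenger RNA export and occupies positions 83715177 to 83726892 of chromosome 8 (GRCm38, plus strand). It measured 258 and 243 CPM with PBS and 145 and 142 CPM with lactic acid, a fall of 42.6% (log2 fold change -0.80, SE 0.04, edgeR adjusted p = 3.31e-26). Ddx3x, which helps ribosomes start on structured leaders of messenger RNA, occupies positions 13280970 to 13294052 of the plus strand of chromosome X. It measured 544 and 531 CPM with PBS and 337 and 346 CPM with lactic acid, a fall of 36.5% (-0.65, SE 0.03, edgeR adjusted p = 4.40e-27). For both genes every lactic acid library lay far below every PBS library.

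Other helicases of the cytoplasm changed less. Ddx6, the activator of decapping in P bodies, fell by 0.24 on the log2 scale (SE 0.03), and Dhx29, which helps the small subunit scan, by 0.21 (SE 0.05). Dhx29 stood at 71.2 and 80.9 CPM in the lactic acid libraries against 87.9 and 88.2 CPM with PBS, and its call was lost on log2(FPKM + 1) and without lactic acid replicate 1 (edgeR adjusted p = 0.125 in the latter). Dhx36, which unwinds G-quadruplexes (-0.042, SE 0.04), and Dhx34, a factor of nonsense-mediated decay (-0.026, SE 0.08), did not pass, and their groups overlapped.

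Among helicases of transcription, small RNA and genome upkeep, 4 of 6 fell, beside 36.5% of genes with at least 20 CPM. Ddx5 measured 1013 and 969 CPM with PBS and 795 and 797 CPM with lactic acid (log2 fold change -0.32, SE 0.02). Ddx20, which works in the SMN complex that assembles spliceosomal particles, measured 61.1 and 58.0 CPM with PBS and 45.0 and 41.7 CPM with lactic acid (-0.46, SE 0.07). Both genes had separate groups. Dhx9, also called RNA helicase A, fell by 0.39 and Ddx1, a part of the tRNA ligase complex, by 0.23 on the log2 scale. Ddx11 (-0.13, SE 0.06) and Ddx17 did not pass. Of the helicases that help to build mitochondrial ribosomes, Ddx28 was lower (-0.25, SE 0.09, edgeR adjusted p = 0.0167) with a call that ended with total counts only (0.0531), in the DESeq2 Wald test (0.129) and without PBS replicate 1, PBS replicate 2 or lactic acid replicate 2. Dhx30 was at -0.051 (SE 0.04).

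Members with less known roles held both a steep fall and the clearest rise. Ddx59, a gene mutated in a human orofaciodigital syndrome, was the least abundant tested member and had 254 and 239 counts with PBS and 141 and 163 counts with lactic acid (log2 fold change -0.67, SE 0.14), with separate groups. Dhx57, of unsettled function, occupies positions 80238304 to 80290476 of the minus strand of chromosome 17 and rose from 56.2 and 61.9 CPM to 69.9 and 71.9 CPM, by 20.0% (0.26, SE 0.06, edgeR adjusted p = 1.69e-04). It was the only one of the 3 risen members whose call held in all 13 alternatives. Dhx32 (0.18, SE 0.08) and Dhx40 (0.015, SE 0.06) did not pass.

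The 5 remaining members were too low to test. Ddx25, a helicase of spermatids, had 4 to 12 counts a library. Ddx4, the germ cell helicase Vasa, had 0 to 2 counts and Ddx60, an interferon-induced gene, 0 to 1. Ddx43, a testis and tumour antigen gene, and Ddx3y, the Y-linked copy of Ddx3x, had no count in any library. At this depth 3 counts in a library correspond to 0.175 to 0.191 CPM, and this limit covers counting error only.

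Reads of some members may include those of other genes. Without information on the strand, reads in shared exons cannot be assigned for Ddx28 and Dus2, Ddx49 and Homer3, Dhx30 and Smarcc1, and Dhx32 and Bccip, where the partner on the other strand held at least 10% as many counts. Processed pseudogenes nearly identical to Ddx5 and Ddx18 held 1.29% and 2.35% as many counts as those genes.

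Ddx and Dhx genes differed in their counts, and that difference was not tested. Of 31 tested Ddx genes 22 fell and 1 rose, with log2 fold changes of -0.80 to 0.11 around a median of -0.25. All 15 Dhx genes were tested, of which 8 fell and 2 rose, with log2 fold changes of -0.45 to 0.26 around a median of -0.13. The lactic acid libraries lay below the PBS libraries in 27 Ddx genes and 8 Dhx genes, and the groups overlapped in 3 and 4. Of genes with at least 20 CPM, 36.5% were called lower and 45.7% were separate with lactic acid below. In the splicing group the families were alike in number, with 4 of 5 Ddx and 4 of 5 Dhx genes lower and medians of -0.17 and -0.22. Outside splicing and ribosome assembly, 9 of 12 tested Ddx genes fell (median -0.24), while 2 of 8 Dhx genes fell and 1 rose (median -0.034). These 8 Dhx genes all had at least 20 CPM, where 36.5% of genes were lower and the median was -0.040. Over all genes tested, 24.3% were lower and the median was 0.0073.

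Helicases of splicing and of ribosome assembly had similar sums and medians. The summed level of the splicing helicases was 373 and 372 FPKM with PBS and 307 and 301 FPKM with lactic acid, a difference of -18.3% between the group means. The ribosome assembly helicases summed to 423 and 416 FPKM with PBS and 347 FPKM in each lactic acid library, a difference of -17.4%. A fall of at least 0.3 was reached by 4 of 10 splicing and 6 of 16 ribosome assembly helicases. Dhx15 serves both processes, and moving it to the second group left medians of -0.17 for splicing and -0.25 for ribosome assembly.

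**Figure D3:**
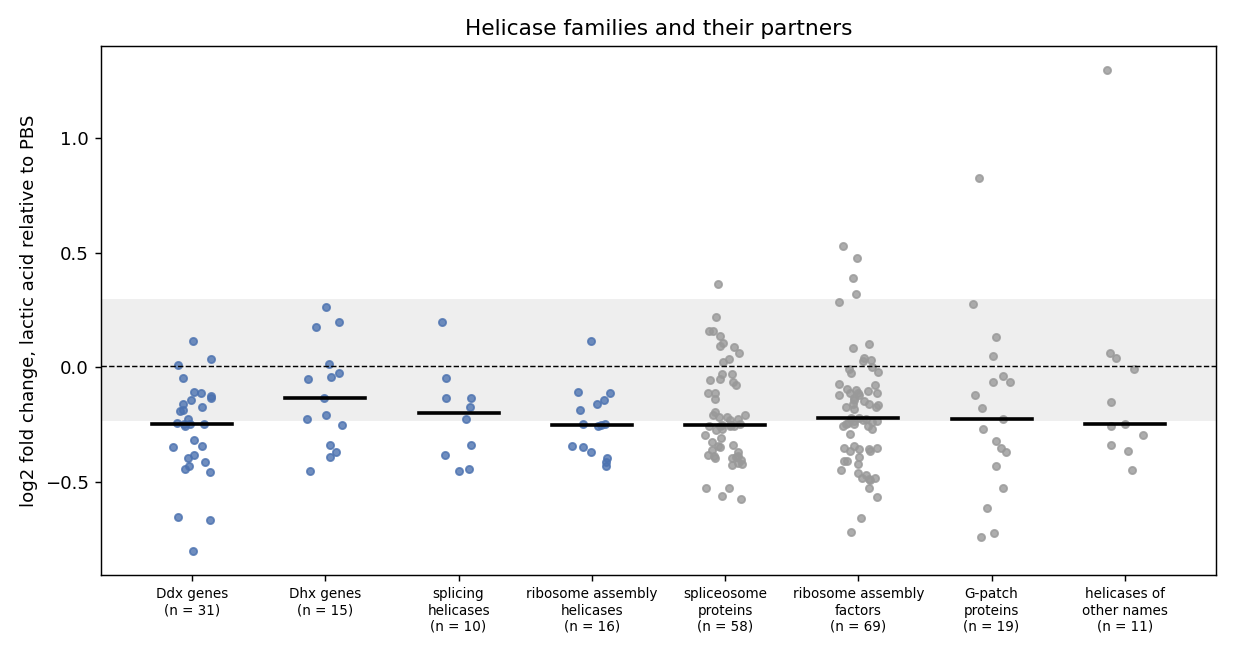
Log2 fold change of single genes, lactic acid relative to PBS, in helicase groups (blue) and in fixed lists of partner genes (grey). Black bars are medians, the dashed line is the median of all genes tested and the grey band their middle 50%. All 8 medians lie below the dashed line, with the smallest distance for Dhx genes, at -0.13.

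Close relatives within the family did not change alike, which shows in ratios that do not depend on the scaling of libraries. Each ratio below is taken within a library on the FPKM scale. Ddx5 over Ddx17, a pair of near relatives that act together with the microRNA processor Drosha, was 2.97 and 2.92 with PBS and 2.30 and 2.40 with lactic acid. Ddx17 itself stayed at 451 and 440 CPM with PBS and 458 and 440 CPM with lactic acid (log2 fold change 0.011, SE 0.03). Ddx21 over Ddx50, neighbours on chromosome 10 that both encode nucleolar proteins, was 12.4 and 12.7 with PBS and 9.32 and 8.91 with lactic acid. Ddx50 measured 91.2 and 86.3 CPM with PBS and 94.7 and 97.2 CPM with lactic acid (0.11, SE 0.05, edgeR adjusted p = 0.0431). Ddx50 was not called in 8 of 13 alternatives, and leaving out PBS replicate 2, lactic acid replicate 1 or lactic acid replicate 2 was enough to end its call (edgeR or other adjusted p of up to 0.376 over the alternatives).

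In the export pairs the ratios were also lower with lactic acid, but both Ddx39 and Ddx39b fell. Ddx39 over Ddx39b was 0.416 and 0.384 with PBS and 0.301 and 0.298 with lactic acid. Ddx19a over Ddx19b, which remodel messages at the cytoplasmic face of the nuclear pore, was 3.93 and 4.90 with PBS and 3.70 and 3.79 with lactic acid, so its PBS libraries differed more from each other than the nearer of them did from the lactic acid libraries. Ddx19a measured 102 and 106 CPM with PBS and 92.1 and 90.2 CPM with lactic acid (log2 fold change -0.19, SE 0.05). Ddx19b measured 59.0 and 49.4 CPM with PBS and 56.7 and 54.2 CPM with lactic acid (0.035, SE 0.07), with overlapping groups. With 2 libraries against 2, an exact permutation test of a single ratio cannot reach a two-sided p below 0.333.

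**Figure D4:**
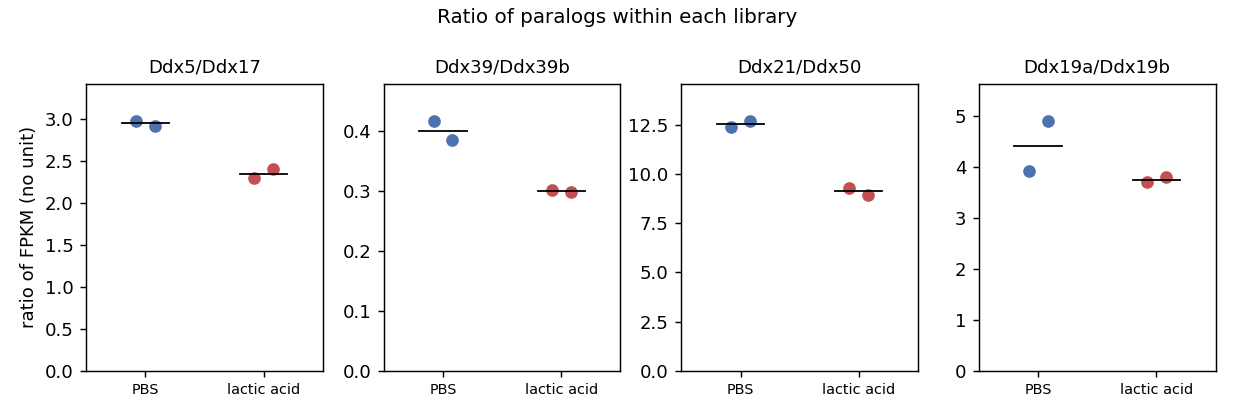
Ratio of FPKM of 4 pairs of related helicases within each library. Points are libraries (blue PBS, red lactic acid), black lines are group means with n = 2, and axes start at 0. The groups are separate in all 4 panels, with Ddx21 over Ddx50 at 12.4 and 12.7 against 9.32 and 8.91.

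The promoters of Ddx5 with Ddx17 and of Ddx21 with Ddx50 are shown, as examples of related genes of which the transcript of one fell and that of the other did not. Ddx19a and Ddx19b are not shown. Only Ddx19a was called lower, but their ratio differed between the PBS libraries (3.93 and 4.90). The sequences are the 250 bases before the start nearest to the gene's 5′ end, from RefSeq on GRCm38.p6, written 5′ to 3′ along the gene, which is on the minus strand in all 4 cases. Capitals mark CCGGAAGT, a core of the site bound by ETS factors.
Ddx5, chr11:106789186-106789435: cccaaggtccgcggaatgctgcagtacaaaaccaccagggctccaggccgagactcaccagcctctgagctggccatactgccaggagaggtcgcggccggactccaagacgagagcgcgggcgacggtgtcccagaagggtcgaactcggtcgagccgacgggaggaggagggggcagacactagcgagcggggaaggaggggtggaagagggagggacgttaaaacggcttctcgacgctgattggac
Ddx17, chr15:79546742-79546991: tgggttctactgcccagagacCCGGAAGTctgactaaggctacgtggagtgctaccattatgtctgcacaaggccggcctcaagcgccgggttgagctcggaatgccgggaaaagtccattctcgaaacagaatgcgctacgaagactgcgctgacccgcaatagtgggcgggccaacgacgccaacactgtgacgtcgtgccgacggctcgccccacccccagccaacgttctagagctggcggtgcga
Ddx21, chr10:62602299-62602548: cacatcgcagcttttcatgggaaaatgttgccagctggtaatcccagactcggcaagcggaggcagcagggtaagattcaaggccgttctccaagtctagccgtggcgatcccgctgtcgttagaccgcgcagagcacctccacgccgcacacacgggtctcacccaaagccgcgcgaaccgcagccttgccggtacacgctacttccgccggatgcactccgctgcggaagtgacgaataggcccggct
Ddx50, chr10:62651219-62651468: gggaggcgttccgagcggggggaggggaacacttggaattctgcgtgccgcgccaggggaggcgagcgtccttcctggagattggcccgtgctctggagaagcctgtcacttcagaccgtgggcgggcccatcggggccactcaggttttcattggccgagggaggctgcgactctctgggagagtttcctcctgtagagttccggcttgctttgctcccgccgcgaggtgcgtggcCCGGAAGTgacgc
All 4 windows are rich in G and C (60.8% to 66.0%) and hold 21 to 25 CpG dinucleotides. Among the 4 windows shown, the letters CCGGAAGT occur in those of Ddx17 and Ddx50 and not in those of Ddx5 and Ddx21. Only these exact letters were searched. The window of Ddx21 holds GCGGAAGT, which differs from them at the first letter, on both strands. A match is a description of the sequence and names no factor at work here.

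Across the family, 46 of 51 members were matched to a promoter window of 300 bases, from 250 before to 50 after a RefSeq start, and any window of a gene was counted. CCGGAAGT, searched on both strands, was found in 10 of the 41 matched members that were tested, or 24.4%, in 9.53% of 9778 matched genes that were tested, and in 4.31% of all 27025 genes with a window. Of those 10 members, 6 fell, 1 rose and 3 did not pass, and of all 41 matched members 27 fell, 3 rose and 11 did not pass. CCGGAAGT itself holds a CpG, and the part of base composition in the shares of genes with it was not tested. The sites are shown with 8 flanking bases on each side where the window allows, in order of the gene's log2 fold change, with the motif or its reverse complement in capitals.
Dhx9, chr1:153487741-153487764, minus strand: tttggcgcCCGGAAGTggttcaag
Ddx39b, chr17:35241778-35241795, plus strand: gcctggaaCCGGAAGTga
Dhx37, chr5:125434097-125434120, minus strand: tgcgcaacCCGGAAGTctcctagc
Dhx8, chr11:101732967-101732990, plus strand: gcgccgacCCGGAAGTggaagctg
Ddx27, chr2:167015303-167015326, plus strand: cgctacgtCCGGAAGTggctgctt
Ddx47, chr6:135011612-135011635, plus strand: tcggccccACTTCCGGagcccacg
Dhx30, chr9:110117665-110117688, minus strand: ccgctccgCCGGAAGTcccgcctg
Dhx34, chr7:16222014-16222037, minus strand: atttaggaCCGGAAGTtgaggcgt
Ddx17, chr15:79546955-79546978, minus strand: ccagagacCCGGAAGTctgactaa
Ddx50, chr10:62651216-62651239, minus strand: tgcgtggcCCGGAAGTgacgcacg
The site reads as CCGGAAGT along the gene in all of them but Ddx47, where it lies on the other strand. Of the other motifs searched on both strands, CACGTG, the E-box, was in 12.2% of the matched tested members and 11.7% of the matched tested genes, TATAAA in 9.76% and 8.54%, and the NRF1 palindrome in 4.88% and 2.41%. TGATGNAAT was in none of the members' windows and in 0.491% of the matched tested genes.

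Partner genes of the same particles were also lower more often than higher. The same held for genes with at least 20 CPM in general, 36.5% lower and 27.1% higher. Over all genes tested, 24.3% were lower and 24.7% higher. Of 58 spliceosome proteins, 39 fell and 5 rose (median log2 fold change -0.25). U2af2, which binds the polypyrimidine tract, fell from 307 and 315 CPM to 211 and 207 CPM (-0.57, SE 0.03), and Bud31 was lower (-0.56), though Ptcd1 overlaps it on the other strand. Snrpf (0.36, SE 0.12) and Snrnp27 (0.22, SE 0.08) were the members with the largest rises. The call of Snrpf lay near the threshold (edgeR adjusted p = 0.0468). Its libraries were at 54.7 and 41.7 CPM with PBS and 62.0 and 61.6 CPM with lactic acid. Of 69 ribosome assembly factors, 50 fell and 5 rose, with a median of -0.22, and Bop1 and Utp20 led the falls (-0.72 and -0.66), where Mroh1 overlaps Bop1 on the other strand. Imp3 (0.53) and Las1l (0.48) rose. These medians lay close to those of the helicases of the same process.

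G-patch proteins, which carry the motif that activates DEAH helicases, fell in 11 and rose in 2 of 19 cases (median log2 fold change -0.23). Gpatch4 fell from 57.8 and 56.9 CPM to 34.7 and 33.8 CPM (-0.74, SE 0.07) and Gpatch3 fell by 0.72 on the log2 scale. Sugp2 was higher (0.28) and Armc6 overlaps it on the other strand, and Cmtr1 was higher (0.83, SE 0.29) but overlaps Ccdc167, which held more counts than Cmtr1 itself. Cofactors of DEAD box helicases fell in 11 and rose in 3 of 18 cases (median -0.17). Beside both lists, 36.5% of genes with at least 20 CPM were lower and 27.1% higher. The scaffolds Eif4g2 and Eif4g1, of which Eif4g1 activates the initiation helicase eIF4A, fell by 0.72 and 0.42 on the log2 scale. Pdcd4, which holds eIF4A inactive, measured 4.46 and 4.93 FPKM with PBS and 9.68 and 9.07 FPKM with lactic acid (1.01, SE 0.11), and Rbm8a rose by 0.12.

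Helicase genes under other names were counted beside the family. Of the 11 of 12 that were abundant enough to test, 7 fell and 1 rose (median log2 fold change -0.25). Again the shares among genes with at least 20 CPM were 36.5% lower and 27.1% higher. Eif4a1, the main initiation helicase, fell from 1162 and 1150 CPM to 847 and 849 CPM (-0.45, SE 0.02), with the limit that a pseudogene identical over part of it held 17.5% as many counts. Its relative Eif4a2 was at 232 and 236 CPM with PBS and 236 and 245 CPM with lactic acid (0.040, SE 0.04). Eif4a3 of the exon junction complex (-0.26), Snrnp200, which unwinds U4 from U6 in the spliceosome (-0.30), Skiv2l (-0.15) and Skiv2l2 (-0.25), which feed RNA to the exosome, Ascc3 (-0.34) of stalled ribosome rescue and the mitochondrial Supv3l1 (-0.37) fell. Dqx1, a DEAH-like gene of low abundance, rose from 1.29 and 0.955 FPKM to 2.85 and 2.61 FPKM (adjusted p = 4.33e-08, edgeR). Ythdc2 (-0.0081) and Helz (0.062) did not pass.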

How the data were processed

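Per the labels' protocols, the libraries hold poly(A) RNA from a TRIzol extraction, were prepared by a NEBNext Ultra kit and were sequenced in pairs. This kit keeps no information on strand, and how strand and overlapping genes were counted is not given in the sources used here. The authors deposited raw read counts per gene and FPKM for the same libraries. The submitters' processing notes name HISAT2 2.0.5, StringTie 1.3.3b, featureCounts 1.5.0-p3, DESeq2 1.16.1 and CASAVA, and the build GRCm38.p6, without saying which step each served. Dividing counts by gene length and the deposited FPKM gave 1 constant per library, 0.982 to 1.025 times its total count, within a relative tolerance of 1e-06.

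Counts were fitted with edgeR 4.0.16 in R 4.3.3 over the whole table (filterByExpr, minimum count 10 and minimum total 15; TMM factors 0.983 to 1.017; robust quasi-likelihood, group as the only term; two-sided, Benjamini-Hochberg, threshold 0.05). CPM use the TMM-scaled library sizes. The standard error is the log2 fold change divided by the square root of F. The fit was tested on simulated counts. Libraries of a group differed by more than sampling noise (chi-square per gene 2.35 and 2.83), so none was a copy. Near-identical copies were sought with blastn 2.17.0 (98% identity over 300 bases) and exon overlaps in GENCODE.

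The members, the lists and the tests were chosen with earlier results of these data known. Protein sequences were not analysed here. Fixed lists give each member a role. Values in every library are given for the 4 members each way with the largest called change (3 rose), the 3 most abundant, the 3 splicing and 3 ribosome assembly helicases with the smallest p, and related pairs. The background at 20 CPM was added after the data were seen. The alternatives were other scaling, filters and tests, the FPKM, leaving out each library, and a replicate block.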

Additional observations from a re-analysis of the deposited data

How the results depend on the processing

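The family stayed lower on balance in all 13 alternatives. Its number of lower members was 26 to 31 and its median log2 fold change -0.24 to -0.18, while the median of all genes tested moved to 0.053 with total counts only. Of 33 called members, 26 kept their call and direction in all 13 alternatives, and no called member reversed. With total counts only, the medians were -0.18 for all members, -0.20 for Ddx, -0.087 for Dhx, -0.15 for splicing and -0.20 for ribosome assembly, and 5 splicing helicases were lower. Higher calls were the least stable. By the DESeq2 Wald test 1 member was higher (0 Ddx, 1 Dhx, 0 splicing, 0 ribosome assembly), and 5 splicing helicases were lower. On log2(FPKM + 0.1) and on log2(FPKM + 1) the numbers of higher members were likewise 1, 0, 1, 0 and 0. With DESeq2 size factors, and with no filter, 0 Ddx and 0 ribosome assembly helicases were higher. The Dhx median was -0.14 with DESeq2 size factors (-0.139), by DESeq2 (-0.139), on log2(FPKM + 0.1) (-0.143) and on log2(FPKM + 1) (-0.138). On log2(FPKM + 0.1) the medians were -0.24 for all members and -0.26 for ribosome assembly. With Dhx15 moved, the splicing median was -0.17. Over all genes, the Wald test called 2251 higher and 2494 lower, against 3445 and 3377 by edgeR. The cause of these shifts was not tested.

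Leaving out 1 library gave 1 to 3 higher and 26 to 29 lower members (median -0.23 to -0.21), 0 to 1 higher and 19 to 22 lower Ddx (-0.26 to -0.23), 1 to 2 higher and 7 to 8 lower Dhx (-0.16 to -0.12), 0 to 1 higher and 5 to 8 lower splicing (-0.22 to -0.18), and 0 to 1 higher and 11 to 12 lower ribosome assembly helicases (-0.26 to -0.24). Without PBS replicate 2, lactic acid replicate 1 or lactic acid replicate 2 only 1 member, Dhx57, was higher, and without lactic acid replicate 2 only 5 splicing helicases were lower. Where 1 library was left in a group, it was assumed to vary like the other group. The labels share replicate numbers 1 and 2 between groups but name no shared batch. With the replicate block 3 members were higher and 30 lower, as without it, and deviations of same-numbered libraries correlated at 0.0053. Low counts limit Ddx59, Ddx55 and Ddx28 most, with standard errors of 0.14, 0.10 and 0.09.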
